A study of Saccharomyces cerevisiae with 3 samples.

Results

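The genes described here carry the names of mitochondrial ribosomal proteins of budding yeast (Saccharomyces cerevisiae). A row was taken when its gene name in the array files began with MRP, MRPL, MRPS, RSM, YML or YMR and ended in a number. This rule found 58 genes among the 6265 genes on the arrays, each with 1 row of 15 probe pairs, and used no measured value. Of these, 33 belong to the large and 23 to the small subunit of the mitochondrial ribosome. The other 2, MRP8 and YMR31, carry such names from early assignments but are not ribosomal proteins: YMR31 is KGD4 in the RefSeq table, a subunit of the 2-oxoglutarate dehydrogenase complex.

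RNA came from the haploid alpha strain BY4742 and was measured on 3 NimbleGen arrays of 1 colour. Control cells were taken from growth at 0.1 MPa (atmospheric pressure) and 24 °C, high-pressure cells after 5 h at 25 MPa and 24 °C, and low-temperature cells after 5 h at 0.1 MPa and 15 °C. No incubation of 5 h is stated for the control. RNA of 3 cultures was pooled for each condition, so there is 1 array per condition, no replicate and no test of any difference. Every value below describes these arrays, and their number limits the precision. In their free text the samples are described with another strain and growth at 30 °C, which the titles and the design text contradict. The strain markers were mixed. LYS2, URA3 and LEU2, deleted in BY4742, were above mismatch on no array, but HIS3, also inactivated by deletion in that strain, was above it on all 3 at log2 levels of 7.12, 8.34 and 7.75. MF(ALPHA)1, an alpha-specific gene, was above it on all 3 at 13.43, 13.21 and 12.89, and so was STE2, an a-specific gene, at 5.38, 5.83 and 5.70.

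Mitochondrial ribosomes make the few proteins that mitochondrial DNA encodes, most of them membrane subunits of the respiratory chain and of ATP synthase. All but one of their own proteins are encoded in the nucleus, translated in the cytosol and imported. Part of the set descends from bacterial ribosomal proteins, and the rest has no bacterial counterpart and was added during the evolution of mitochondria. In budding yeast the messenger RNAs of many of these proteins are bound by Puf3, a regulator of messenger RNA decay and translation. The 58 genes lie on 15 chromosomes in the RefSeq table.

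Most of the genes had higher levels under pressure and in the cold than in the control, and none was lower past 1.5-fold. The level is the authors' log2 value from RMA, a method that summarises the perfect-match probes of a gene, and 1.5-fold is the size named in the design text. A gene was counted if the higher of its 2 levels reached the 25th percentile of that array. Under pressure 36 of the 55 genes counted were higher, or 65.5%, against a background of 28.1% of all genes, and 0 were lower against 12.2%. In the cold 43 of 56 were higher, or 76.8%, against 34.7%, and 0 were lower against 9.6%. The median log2 ratio of the 58 genes was 0.79 under pressure and 1.06 in the cold, and that of all genes was 0.13 and 0.26. Both comparisons share the control array. MRP21 was under the level limit in both comparisons, MRPL7 and MRPL24 under pressure alone, and RSM18 in the cold alone. A level is relative to the other transcripts on the array, so fewer cells with a transcript and less of it in each cell cannot be told apart.

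The number of genes with measurable signal differed between the arrays in the same direction. A gene was called above mismatch when its 15 perfect-match probes were on average brighter than their mismatch partners, by a one-sided limit of 5% over the pairs. On the control array 33 of the 58 genes, or 56.9%, were above mismatch, close to the 54.3% of all genes. On the high-pressure array it was 52 genes or 89.7%, and on the low-temperature array 51 genes or 87.9%, against 62.4% and 60.8% of all genes. Above mismatch on every array were 33 genes, on both treated arrays but not in the control 16, on the high-pressure array alone 3, on the low-temperature array alone 2 and on none 4. The median perfect-match intensity of the 58 genes was 219.5 in the control, 361 under pressure and 482 in the cold. That of all genes rose as well, from 277 to 326 and 400. The median mismatch intensity of the 58 genes was 160.5, 151 and 152, and that of all genes 172, 165 and 179. MRPL4, MRPL28, RSM23 and MRPS5 were the 4 genes above mismatch on no array, and no fold is given for them.

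**Figure D1:**
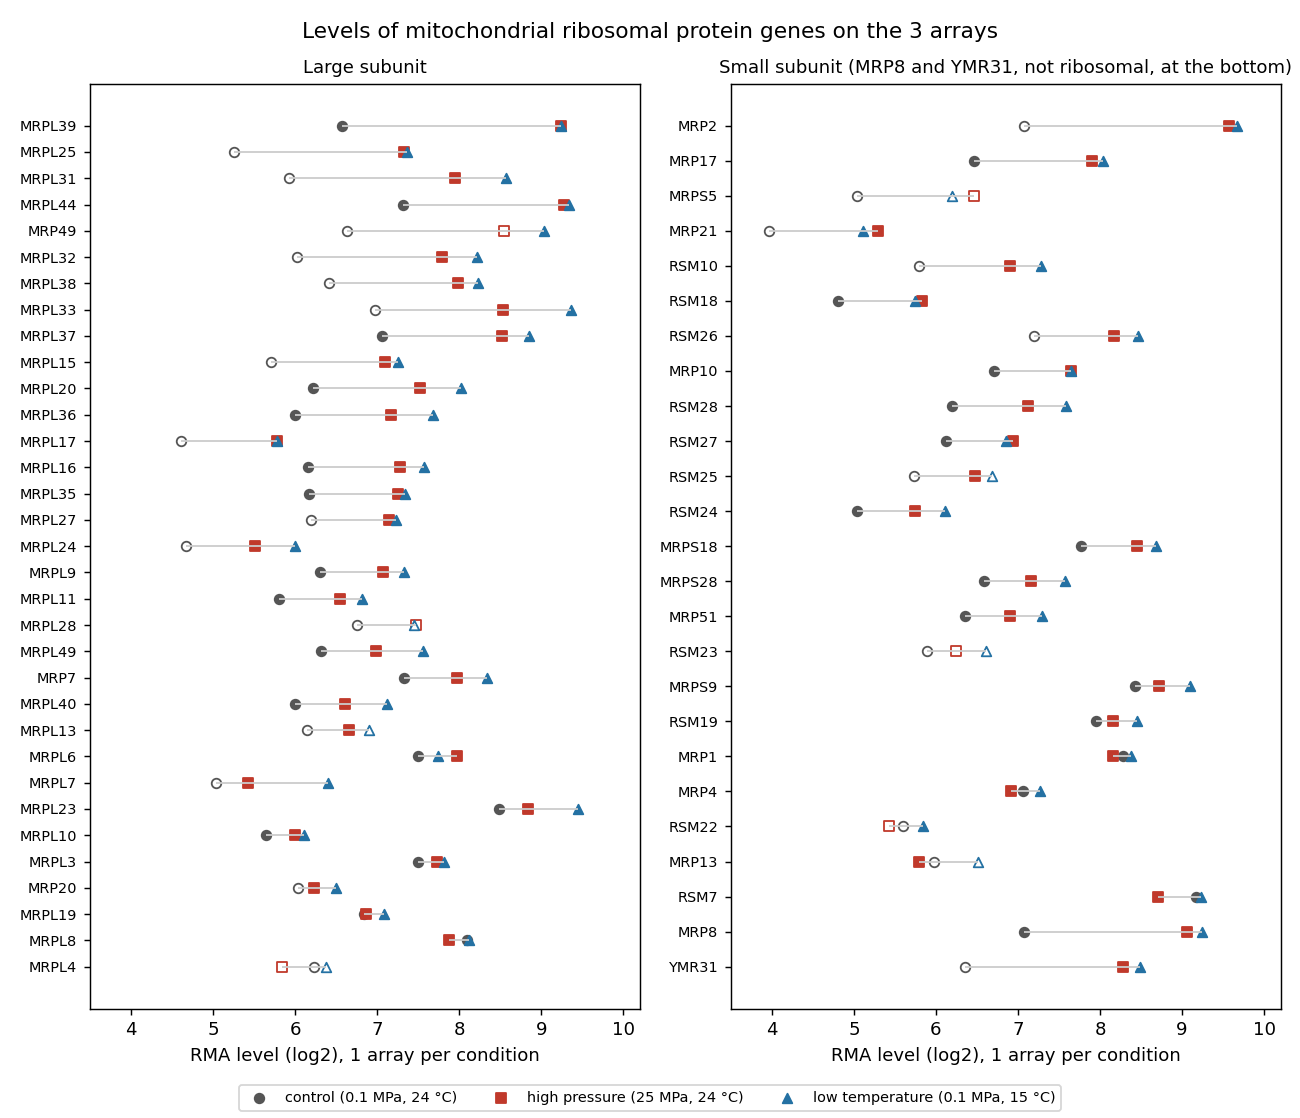
Log2 RMA level of each of the 58 genes on the control (circle), high-pressure (square) and low-temperature (triangle) array, with 1 array per condition and no error bar. Open symbols are levels not above mismatch. Within each subunit genes are ordered by their log2 ratio under pressure, with MRP8 and YMR31 at the bottom right. All 58 triangles lie to the right of their circle, by 0.02 to 2.66.

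In the large subunit the genes with the highest ratios were short ones of both origins. MRPL39 (YML009C), the counterpart of bacterial L33, had log2 levels of 6.58 in the control, 9.24 under pressure and 9.24 in the cold. Its log2 ratios were thus 2.66 and 2.66 (6.32-fold and 6.33-fold), with the 2 treated arrays at one level. The mean perfect-match intensity of its 15 probes was 188 ± 25.6 (SE over probes) in the control, 821 ± 208 under pressure and 996 ± 255 in the cold. This error reflects how unequally the probes of a gene bind and says nothing about replicate cultures.

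MRPL31 (YKL138C), a protein found in mitochondrial ribosomes only, had levels of 5.93 in the control, 7.95 under pressure and 8.57 in the cold. Its ratios were 2.02 under pressure and 2.64 in the cold, at least 4.06-fold and at least 6.24-fold. "At least" is written where the lower of the levels did not exceed mismatch. The number is then the plain ratio of the RMA levels and no lower limit on other scales. With perfect-match intensities such ratios can be smaller: for MRPL31 they were 1.37 and 2.15 on the log2 scale. MRPL25 (YGR076C), also without a bacterial counterpart, stood at 5.26, 7.33 and 7.37, with ratios of 2.07 and 2.11 (at least 4.19-fold and at least 4.32-fold) that were 0.84 and 0.82 with perfect-match intensities. For MRPL44 (YMR225C), of the same kind, the levels were 7.32, 9.28 and 9.34 and all were above mismatch, which gives 1.96 and 2.03 on the log2 scale (3.90-fold and 4.07-fold).

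MRPL32, the counterpart of bacterial L32 and a substrate of the mitochondrial m-AAA protease during its maturation, had levels of 6.02, 7.80 and 8.22. Its ratios were 1.77 and 2.20 (at least 3.42-fold and at least 4.58-fold). MRPL33, the counterpart of bacterial L30, had 6.97, 8.53 and 9.37, with a ratio of 2.39 in the cold (at least 5.26-fold) but 1.58 with perfect-match intensities. MRP49, a mitochondrial protein without a bacterial relative, lay at 6.63, 8.54 and 9.03, not above mismatch on the first 2 of these arrays, and had 2.41 in the cold (at least 5.30-fold). On the RMA scale these genes, named for their high ratios against the control, separated it from both treated arrays by more than the treated arrays from each other. With perfect-match intensities this failed for MRPL33, with 0.62 for pressure against control and 0.96 for cold against pressure.

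At the other end of the large subunit, MRPL8, the counterpart of bacterial L17, had levels of 8.10, 7.88 and 8.12 and ratios of -0.22 and 0.02. Its perfect-match intensity was 431 ± 93.5 in the control and 431 ± 113 under pressure. MRPL19, the counterpart of bacterial L11, had 6.84, 6.86 and 7.09, and MRP20, the counterpart of L23 at the exit of the peptide tunnel, 6.04, 6.23 and 6.49. MRPL3, of the ribonuclease III fold, and MRPL10, the counterpart of L15, had ratios under pressure of 0.23 and 0.35 and in the cold of 0.32 and 0.46. MRPL6, the counterpart of L6, had 0.47 under pressure and 0.24 in the cold. All of these lay inside 1.5-fold. MRPL4, the counterpart of L29, had levels of 6.23, 5.84 and 6.38, none above mismatch. In all, 22 of 31 large-subunit genes counted were higher under pressure, or 71.0%, against 28.1% of all genes, and 26 of 33 in the cold, or 78.8%, against 34.7%.

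In the small subunit 1 gene stood far above the rest on the RMA scale. MRP2 (YPR166C), the counterpart of bacterial S14, had levels of 7.07, 9.57 and 9.67, with ratios of 2.50 under pressure and 2.60 in the cold (at least 5.64-fold and at least 6.07-fold). Its perfect-match intensity was 252 ± 46.8, 818 ± 135 and 1375 ± 394, and its mismatch intensity 450, 119 and 110, so that on the control array alone the mismatch probes were the brighter. The next gene, MRP17, the counterpart of S6, had 6.46, 7.91 and 8.03, above mismatch on every array, and ratios of 1.45 and 1.57 (2.73-fold and 2.97-fold).

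RSM10, the counterpart of S10, had levels of 5.80, 6.90 and 7.28 and ratios of 1.10 and 1.48 (at least 2.14-fold and at least 2.80-fold). MRP21, the counterpart of S21, was at 3.97, 5.29 and 5.11, under the level limit on all 3 arrays. RSM18, the counterpart of S18, lay at 4.80, 5.83 and 5.75, a ratio of 1.02 under pressure (2.03-fold). With perfect-match intensities its ratio under pressure was 1.70, the same as that of MRP2, and in the cold 1.57 against 2.45 for MRP2. RSM28 had a ratio of 1.40 in the cold (2.63-fold). RSM26, of the manganese superoxide dismutase fold, had 1.26 in the cold (at least 2.39-fold).

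At the low end of the small subunit, RSM7, the counterpart of S7, had levels of 9.17, 8.70 and 9.23, a ratio of -0.47 under pressure and 0.05 in the cold. MRP13 had 5.98, 5.79 and 6.52, a ratio of -0.19 under pressure. MRP4, the counterpart of S2, had -0.15 and 0.21, and MRP1, which shares the fold of RSM26, -0.12 and 0.10. RSM22, related to methyltransferases, had levels of 5.59, 5.43 and 5.84, and RSM19, the counterpart of S19, had ratios of 0.21 and 0.50. None of these values passed 1.5-fold. Under pressure 12 of 22 small-subunit genes counted were higher, or 54.5%, against 28.1% of all genes, and in the cold 15 of 21, or 71.4%, against 34.7%.

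**Figure D2:**
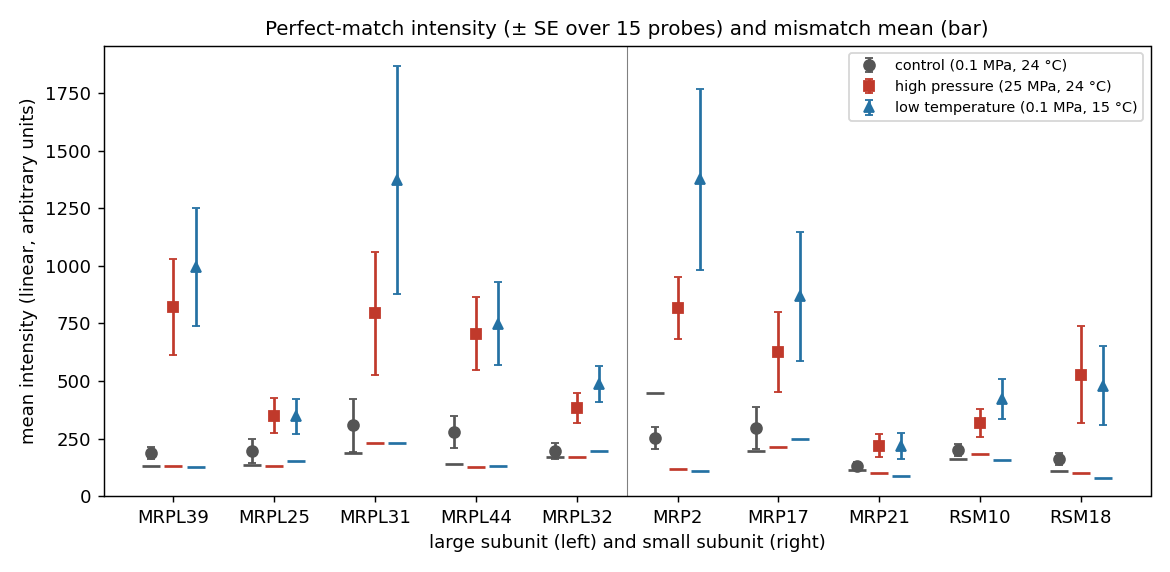
Mean perfect-match intensity (symbols, ± SE over 15 probes) and mean mismatch intensity (bars) of the 5 genes of each subunit with the highest log2 ratio under pressure among those above mismatch on either array, on a linear axis from 0. Both treated arrays lie above the control for all 10 genes, as for MRPL39 with 188, 821 and 996, and the mismatch bar of MRP2 is high on the control array alone.

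The 2 subunits were next set side by side. The median log2 ratio under pressure was 0.84 for the large and 0.71 for the small subunit, a difference of 0.13. In the cold it was 1.18 and 0.94, a difference of 0.24. Within each subunit the ratios spread far wider than that, from -0.39 to 2.66 in the large and from -0.47 to 2.50 in the small subunit under pressure. With perfect-match intensities the difference between subunits was 0.056 under pressure and 0.016 in the cold. The members of a subunit are not replicates, so this difference has no test.

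Gene length differed between the subunits, with a median of 645 bases in the large and 801 in the small. Over all genes short ones had higher ratios on both treated arrays. The median log2 ratio under pressure was 0.34 for genes under 500 bases, 0.50 from there to under 800 bases and 0.09 for longer ones, and in the cold 0.53, 0.66 and 0.20. Lengths are those of the RefSeq genes, which are nearly all multiples of 3 and so are coding lengths, with any intron. A smooth trend of the ratio on length was fitted over the 5762 genes with a length. The trend was subtracted gene by gene, and the median of the values subtracted from the 58 genes was 0.39 under pressure and 0.57 in the cold.

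After this adjustment the genes still lay above the trend. The median length-adjusted ratio was 0.45 under pressure and 0.61 in the cold, against -0.005 and -0.002 for all genes. Above 0 were 46 of the 58 genes under pressure, or 79.3%, and 49 in the cold, or 84.5%, against 49.6% and 49.9% of all genes. Higher past 1.5-fold were 24 of 55 under pressure, or 43.6%, against 21.3% of all genes, and 29 of 56 in the cold, or 51.8%, against 21.5%. Lower past 1.5-fold were 3 under pressure, namely MRPL4 (above mismatch on no array) at -0.64, MRPL8 at -0.64 and RSM7 at -0.87, against 18.5% of all genes. In the cold none was lower, against 19.2%. The adjustment moved 12 genes from higher to inside 1.5-fold under pressure and 14 in the cold.

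Adjusted for length, the large subunit had a median of 0.46 under pressure and 0.69 in the cold, and the small subunit 0.39 and 0.42. Under pressure 15 of 31 large-subunit genes (48.4%) and 7 of 22 small-subunit genes (31.8%) remained higher past 1.5-fold, against 21.3% of all genes. In the cold it was 20 of 33 (60.6%) and 7 of 21 (33.3%), against 21.5%. The large-subunit genes with the highest adjusted ratios were MRPL39 at 2.31 and MRPL25 at 1.64 under pressure, and MRPL39 at 2.11 and MRPL31 at 2.04 in the cold. In the small subunit they were MRP2 at 2.09 and MRPS5 at 1.15 under pressure, the latter above mismatch on no array, and MRP2 at 2.00 and RSM28 at 1.07 in the cold. The order of the adjusted medians of the subunits was reversed in 23 further mitochondrial ribosomal genes, described below.

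**Figure D3:**
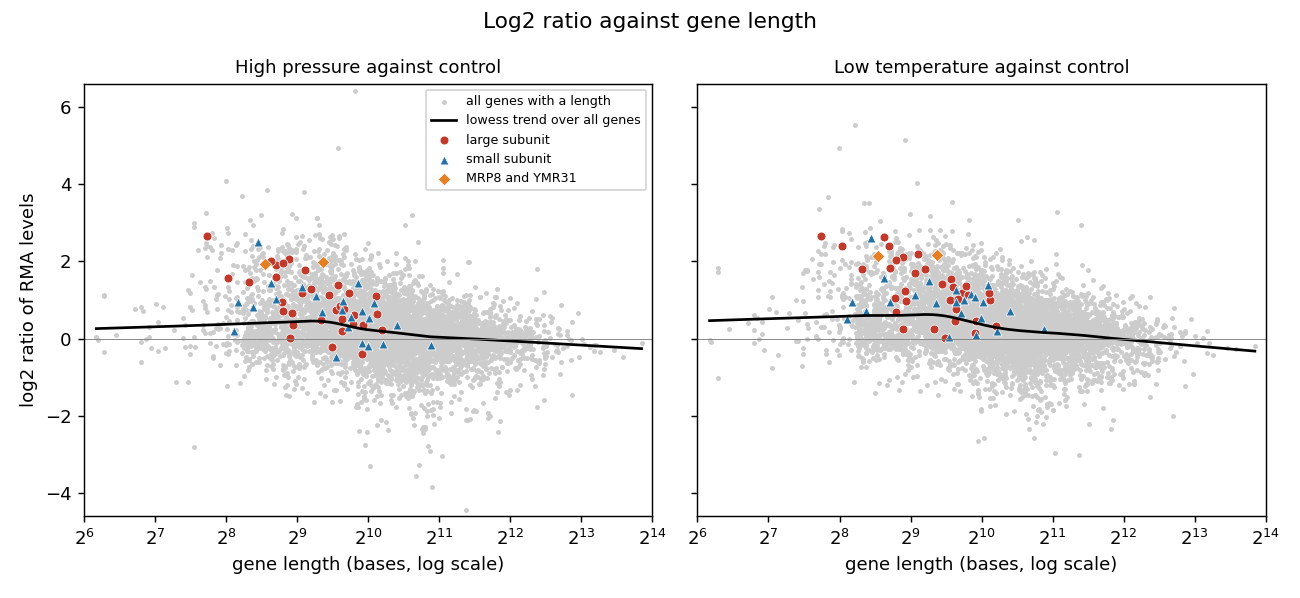
Log2 ratio of RMA levels against gene length (log axis) for the 5762 genes with a length (grey), with the smooth trend over all of them (line) and the 33 large-subunit, 23 small-subunit and 2 other members. Most members lie above the line in both panels, 46 of 58 under pressure and 49 of 58 in the cold, and the highest lie at the short end.

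Among the 58 genes themselves the ratio followed length more closely by rank than over all genes. Spearman's rho between ratio and length was -0.58 under pressure and -0.48 in the cold over the 58 genes, and -0.29 and -0.32 over all genes with a length. After the adjustment it was -0.49 and -0.37 over the members. By subunit it was then -0.54 and -0.52 in the large, and -0.39 and -0.08 in the small. These are descriptions across genes that share 3 arrays. Of the 20 members under 500 bases, 17 were higher under pressure, with a median ratio of 1.46, and 17 of 19 counted in the cold, with 1.68. These counts are 85.0% and 89.5%, against 47.7% and 54.3% of all genes under 500 bases. The 17 members from there to under 800 bases had medians of 0.84 and 1.14, and the 21 longer members 0.54 and 0.99. In each of these classes the median of the members was above that of all genes of the class, given above. In the longest class the perfect-match medians of the members were 0.26 and 0.65, against 0.11 and 0.33 for all genes.

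Origin was compared within each subunit. The 13 large-subunit genes found only in mitochondrial ribosomes had a median ratio of 1.29 under pressure and 1.55 in the cold, and the 20 with a bacterial counterpart 0.65 and 1.07. All 13 were above the length trend on both treated arrays, with adjusted medians of 0.89 and 0.99, and 15 of the 20 were, with 0.33 and 0.65. The first group was shorter, with a median of 474 bases against 708. Among large-subunit genes under 500 bases, the 7 of the first kind had a median of 1.91 under pressure and the 6 of the second 1.11, and in the cold 2.03 and 1.53. With perfect-match intensities the difference between the groups of 13 and 20 was smaller, with medians of 0.77 and 0.46 under pressure and 0.94 and 0.80 in the cold. In the small subunit the 10 mitochondrial genes had medians of 0.73 and 0.83, and the 13 with a bacterial counterpart 0.68 and 0.94. With perfect-match intensities these were 0.28 and 0.62 for the first and 0.54 and 0.92 for the second, which turns the order under pressure. The origin of a protein and the length of its gene were not separated further.

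MRP8 and YMR31, the 2 members outside the ribosome, had ratios among the higher ones of the set. MRP8 had levels of 7.08, 9.07 and 9.24, above mismatch on every array, with ratios of 1.99 and 2.16 (3.97-fold and 4.47-fold). YMR31 (KGD4) had 6.35, 8.28 and 8.49, with ratios of 1.93 and 2.13 (at least 3.81-fold and at least 4.39-fold). Without both, 34 of 53 members counted were higher under pressure, or 64.2%, against 28.1% of all genes. In the cold it was 41 of 54, or 75.9%, against 34.7%, and the medians were 0.76 and 1.03.

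The naming rule leaves out 23 further genes of mitochondrial ribosomal proteins, 10 of them because the files hold systematic names for them. Their median ratio was 0.56 under pressure and 0.98 in the cold, with 11 and 14 of 23 higher and 0 lower in either. The higher ones are 47.8% and 60.9%, against 28.1% and 34.7% of all genes. Adjusted for length the medians were 0.22 and 0.38. Then 7 or 30.4% were higher and 2 lower under pressure, against 21.3% and 18.5% of all genes, and 9 or 39.1% higher and 0 lower in the cold, against 21.5% and 19.2%. The 12 large-subunit genes among them had adjusted medians of 0.19 and 0.32, and the 11 small-subunit genes 0.37 and 0.90. Higher after adjustment were 2 of 12 (16.7%) and 5 of 11 (45.5%) under pressure. In the cold it was 3 of 12 (25.0%) and 6 of 11 (54.5%). The subunits thus stood in the reverse order of that in the set. MRPL51, a mitochondrial protein, had levels of 5.68, 8.01 and 7.84 and ratios of 2.33 and 2.16. MRPL50, the counterpart of bacterial L9, had 5.12, 7.25 and 7.27, and MRPS16, the counterpart of S16, 6.61, 8.72 and 8.33, a ratio of 2.11 under pressure. PET123, which interacts genetically with MRP1, had ratios of 1.76 and 2.15, but 0.69 and 1.00 with perfect-match intensities. MRPL51, MRPL50 and PET123 were not above mismatch in the control, and MRPS16 was above it on every array. MRPS12, the counterpart of S12 of the decoding centre, had 10.55, 10.24 and 10.89, and IMG1, the counterpart of L19, 8.39, 8.04 and 8.49, ratios of -0.31 and -0.35 under pressure. VAR1, the ribosomal protein that mitochondrial DNA encodes, had 6.47, 6.70 and 6.23, above mismatch on no array. These genes thus held both strongly higher members and members inside 1.5-fold, as the set itself did.

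Proteins of the cytosolic ribosome are short as well and served as a comparison of similar gene length, but not of like signal. Gene lengths here include introns, which were not taken out, so the transcript lengths of the 2 sets can differ more than the gene lengths. Their median control level was 12.93, against 6.27 for the 58 genes, and their median perfect-match intensity 6758 against 219.5. The 138 genes had a median length of 771 bases and all were above mismatch on all 3 arrays. Their median log2 ratio was 0.09 under pressure and 0.31 in the cold, with 21 and 40 of 138 higher past 1.5-fold. These are 15.2% and 29.0%, below the 28.1% and 34.7% of all genes. Adjusted for length it was -0.22 and -0.20, below the trend, where the mitochondrial set had 0.45 and 0.61. Of the cytosolic genes under 500 bases, 6 of 25 or 24.0% were higher under pressure, against 17 of 20 mitochondrial ones and 47.7% of all genes of that length. With perfect-match intensities the cytosolic medians were 0.44 and 1.02, against 0.50 and 0.86 in the mitochondrial set. Under pressure the 2 sets then lay close together, and in the cold the cytosolic set lay above. The order of the 2 ribosomes in the cold and the size of their gap under pressure therefore rest on the RMA scale.

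**Figure D4:**
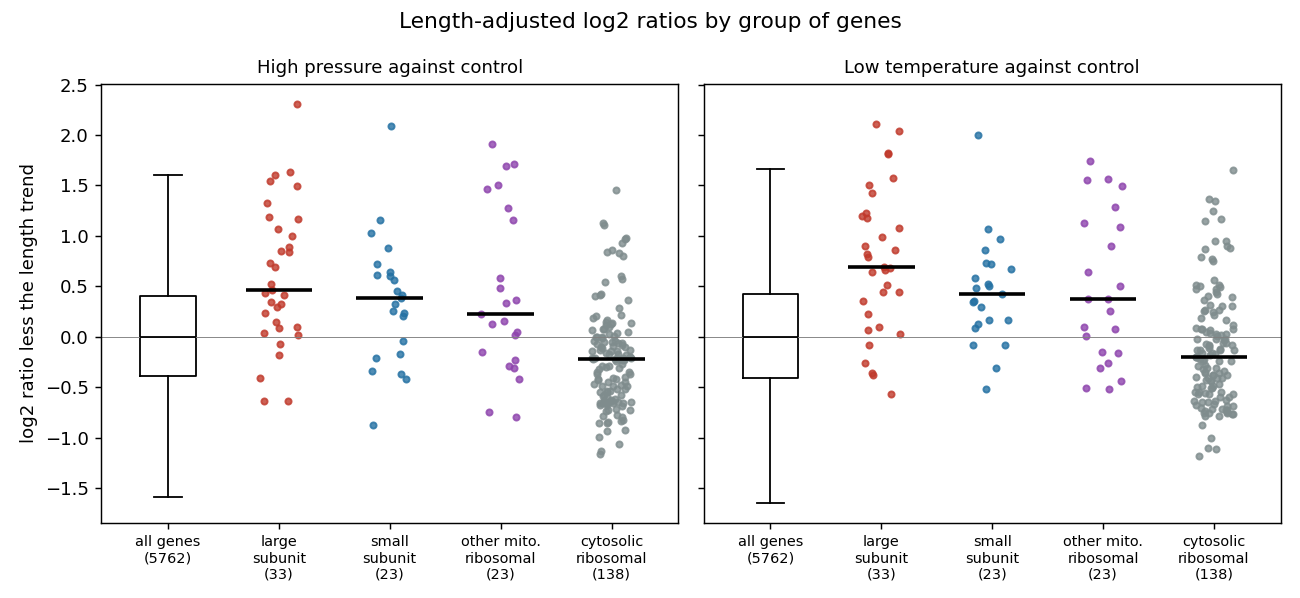
Log2 ratio less the length trend for all genes (box of the quartiles with the median, whiskers to 1.5 times the box), large-subunit and small-subunit members, the 23 other mitochondrial ribosomal proteins and the 138 cytosolic ribosomal proteins, with a point per gene and a bar at the median. Medians under pressure are 0.46, 0.39, 0.22 and -0.22 for the 4 groups of points.

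Other genes of mitochondrial translation were read from lists. Of 7 translation factor genes, 4 reached the level limit, and none of these was higher or lower past 1.5-fold on either treated array. The medians of the 7 were 0.08 and 0.37. TUF1, the elongation factor that brings aminoacyl-tRNA to the ribosome, had levels of 9.97, 9.43 and 9.50. Its ratios of -0.54 and -0.47 were the lowest of that list, and GUF1, a translational GTPase, had 0.54 under pressure, the highest. Of 6 genes of ribosome assembly, 0 of 4 counted were higher under pressure, against 28.1% of all genes, with a median of -0.03. In the cold it was 2 of 5, or 40.0% against 34.7% of all genes, with a median of 0.50. MRM2, a methyltransferase of the large ribosomal RNA, had 0.52 and 0.60, and MTG1, a GTPase of assembly, 0.34 and 0.67, above mismatch on no array. Translation factors and assembly factors are longer genes, with medians of 1938 and 1398 bases, and adjusted for length they had -0.07 and -0.14 under pressure and 0.13 and 0.25 in the cold.

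Of 13 genes for activators of single mitochondrial messengers, 10 reached the level limit in each comparison. Under pressure 3 of these were higher, or 30.0%, near the 28.1% of all genes, and 1 was lower, and the median of the 13 was 0.37. In the cold 7 were higher, or 70.0%, against 34.7%, and none was lower, and the median was 0.70. Adjusted for length 2 of 10 or 20.0% were higher under pressure, against 21.3% of all genes. In the cold it was then 3 of 10 or 30.0%, against 21.5%, and the adjusted medians were 0.32 and 0.34. The perfect-match medians were 0.14 and 0.59, against 0.15 and 0.41 for all genes. PET54, which acts on COX3 translation, had levels of 5.50, 6.94 and 7.84 and ratios of 1.44 and 2.34, but 0.40 and 1.11 with perfect-match intensities. CBP6, which acts on cytochrome b synthesis, had a ratio of 1.13 under pressure and CBS2, of the same messenger, 1.28 in the cold. MSS51, an activator of COX1 translation, lay at 7.34, 6.70 and 7.61, above mismatch on no array, and PET122, of COX3, had -0.00 and 0.10. The membrane anchors of the ribosome, MBA1, MDM38 and OXA1, had ratios between -0.34 and 0.33 on both treated arrays. PUF3 itself lay at 5.01, 4.98 and 4.98, above mismatch on no array.

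The cold array was last set directly against the high-pressure array, which does not involve the control. The median log2 ratio of the 58 genes was 0.27, against 0.12 for all genes, and was 0.27 in the large and 0.30 in the small subunit. Higher in the cold past 1.5-fold were 5 of 57 genes counted, or 8.77%, near the background of 10.1%, and 0 were lower against 4.28%. The 5 were MRPL7, the counterpart of bacterial L5, at 0.98 (1.97-fold), MRPL33 at 0.83 (1.78-fold), MRP13 at 0.73 (1.66-fold), MRPL31 at 0.62 (1.54-fold) and MRPL23, the counterpart of L13, at 0.60 (1.52-fold). Among the genes inside 1.5-fold, MRPL49, the counterpart of L21, was the highest at 0.58. In the small subunit, RSM7 had 0.52, RSM28 0.47, MRPS28, the counterpart of S15, 0.42 and RSM22 0.41. The lowest value, -0.27, was that of MRPS5, which was above mismatch on no array. Among genes above mismatch on either of the 2 arrays, the low end held MRPL6 at -0.23, MRP21 at -0.18, RSM27 at -0.09, RSM18 at -0.08 and MRP10, a twin-cysteine protein imported through Mia40, at -0.01. MRPL39, MRPL17, MRPL25 and MRPL44 lay between 0.00 and 0.06. MRPL39 and MRP2 had the highest RMA ratios of their subunits against the control. Between the treated arrays they had 0.00 and 0.11 on the RMA scale, but 0.28 and 0.75 with perfect-match intensities. After the length adjustment 2 of 57 were higher, or 3.51%, against 6.19% of all genes, and 0 lower against 6.48%.

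Scaling of the arrays touches every count above. The median level over all genes was 6.43 on the control, 6.76 on the high-pressure and 6.97 on the low-temperature array, and centring removes these shifts. With centred arrays 26 members were higher under pressure, or 47.3%, against 17.1% of all genes, and 2 were lower, against 24.9%. In the cold 26 were then higher, or 46.4%, against 14.6%, and 0 lower against 30.3%. When the gene values were quantile-normalized, 26 members were higher and 2 lower under pressure, beside 20.3% and 18.6% of all genes. In the cold 31 members were then higher and 0 lower, beside 20.1% and 19.6%.

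The probe intensities gave the same ordering of members and all genes against the control. With perfect-match intensities 25 members were higher under pressure, or 48.1%, against 23.8% of all genes, and 0 were lower against 5.11%. In the cold it was 41 members, or 74.5%, against 45.9%, and 0 lower against 2.28%. In each of these settings the share of members counted as higher exceeded that of all genes in both comparisons with the control.

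Between the treated arrays the share of members stayed near that of all genes in each setting. Higher in the cold than under pressure were 10 of 56 members with perfect-match intensities, with 16.9% of all genes, 2 of 57 with centred arrays, with 4.34%, and 3 of 57 after quantile normalization, with 5.93%. No member was lower in any of these settings, with 1.74%, 8.82% and 5.73% of all genes. The median of the 58 genes ranged from 0.058 with centred arrays to 0.42 with perfect-match intensities.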

How the data were processed

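The deposited series table holds log2 levels that, per the labels, the authors made with RMA and quantile normalization. The medians of these levels over all genes differed between the arrays even so (6.43, 6.76 and 6.97), and the reason was not tested. The RMA version, background correction and probe genome build are not given in the sources used here. The deposited per-array tables hold mean perfect-match and mismatch intensity over 15 probe pairs per gene, with a coefficient of variation. Arrays have no read depth. Rows of one gene (142 rows of 70 genes, no member among them) were averaged on the log2 scale. Names were matched to RefSeq assembly R64 by locus tag (1723 rows), symbol (3953) or synonym (152), and 509 kept the name in the files. A length was known for 92.0% of genes and all 58 members. No coordinates or sequences are given, and the planned promoter motif was not counted, since no promoter sequences were used here.

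Above mismatch means a t value of the probe-pair difference over 1.76 with 14 degrees of freedom. "At least" was computed against the higher of the dimmer level and the lowest level above mismatch on that array. That lowest level was 3.58 on the control, 3.60 on the high-pressure and 3.21 on the low-temperature array. No member lay below it, so each "at least" value is the plain ratio of RMA levels. The length trend was a lowess fit (statsmodels 0.14.6, Python 3.11.15) with a span of 0.4. It was run on simulated data with a straight trend on log2 length, which is simpler than the trend over these genes. How accurate the fit is on these arrays was not tested. No set test or replicate test was possible with 1 array per condition. Subunits and origins came from a list written from general knowledge. Members and lists were chosen with earlier results of these data known. Named genes were the 5 highest and 5 lowest of each subunit in each comparison among those above mismatch on either array, members outside the ribosome, members above mismatch on no array, and the extremes of the other lists. Members at the extremes after length adjustment were named too. Alternatives were perfect-match intensities, centred arrays, quantile-normalized gene values, no level limit, removal of the length trend and its span, exclusion of MRP8 and YMR31, and members above mismatch on both arrays.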

Additional observations from a re-analysis of the deposited data

How the results depend on the processing

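Of 62 alternative values, 42 stayed within 1.5 times the count or within 0.1 of the median on the log2 scale, 20 moved further, and no median changed sign. Under pressure the count of higher members was 20 among the 33 above mismatch on both arrays, and the count of lower members was 2 with centred arrays, 2 with quantile-normalized values and 3 after the length trend. In the cold the count of higher members was 26 with centred arrays and 23 among the 33 above mismatch on both. The median under pressure was 0.50 with perfect-match intensities, 0.45 centred, 0.53 quantile-normalized, 0.45 after the length trend and 0.68 for members above mismatch on both. In the cold it was 0.86, 0.51, 0.66 and 0.61 in the first 4 of these settings, and between the treated arrays 0.42, 0.058, 0.15 and 0.13. The cold difference between subunits was 0.016 with perfect-match intensities. The smaller counts among members above mismatch on both arrays come from fewer genes, and no share of all genes is given beside them. For the other shifts the cause was not tested. A span of 0.2 or 0.6 for the length trend gave 26 and 27 members past 1.5-fold under pressure, with 27 at the span used, and 31 and 29 in the cold, with 29. No paired analysis was possible because each condition has 1 array. With 25 of 58 members not above mismatch in the control, their folds against it are the least certain.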

Other observations

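The genes that keep and transcribe mitochondrial DNA had ratios of both signs against the control, the negative ones being those of MIP1 alone. MIP1 and MTF1 were under the level limit on both treated arrays and the control, so 2 of the 4 genes were counted. ABF2, which packages mitochondrial DNA, had log2 levels of 9.01 in the control, 10.03 under pressure and 10.40 in the cold, ratios of 1.02 and 1.40. MIP1, the mitochondrial DNA polymerase, had 5.19, 4.46 and 4.70. RPO41, the mitochondrial RNA polymerase, had 6.93, 7.03 and 7.02, above mismatch on no array, and MTF1, its specificity factor, ratios of 0.34 and 0.31. Among rows of genes that mitochondrial DNA encodes, ATP6 had 5.44, 4.52 and 4.13, above mismatch on all 3 arrays, with ratios of -0.92 and -1.30. OLI1, of ATP synthase too, had 10.95, 11.22 and 11.13, and COX2 and COB were above mismatch on no array. The design text states that poly(A)+ RNA was isolated for labelling, and how that step treats mitochondrial transcripts was not tested.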
